A study of Mus musculus with 12 samples.

Results

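Chemokine receptors are G protein-coupled receptors that steer a helper T cell along gradients of chemokines, and the set a cell displays decides which tissue it can enter. CCR7 and CXCR4 keep naive T cells in circulation through lymph nodes and marrow, CXCR3, CXCR6 and CCR2 serve inflamed tissue and are linked to Th1 cells, and CCR4 and CCR8 are linked to Th2 cells and regulatory T cells. CCR6 is the receptor of Th17 cells and B cells, and CXCR5 that of follicular helper T cells and B cells. The 9 genes Cxcr3, Cxcr6, Ccr2, Ccr4, Ccr8, Ccr6, Ccr7, Cxcr4 and Cxcr5 were followed here in ATAC-seq peak lists, which mark DNA open to the Tn5 transposase. Peaks of the 12 lists that overlap were merged into regions, and a region was assigned to a receptor gene when it touched the gene or the 20 kb flanking either end (GRCm38). This gave 92 regions at the 9 genes, of 110642 in the genome, and the genes are 9 of 21631 protein-coding genes in the table used.

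The CD4+ T cells came from the spleen of C57BL/6J mice, wild type or of the strain C57BL/6J-Ets1-SE-KO, which lacks a super-enhancer of Ets1, an ETS transcription factor gene of T cells. Naive cells were used directly or cultured for 6 days on anti-CD3 with anti-CD28, for Th1 with 10 ng/mL IL-12 and 1 ng/mL IL-2 and for Th2 with 50 ng/mL IL-4 and an antibody to interferon gamma. Each of the 6 groups has 2 libraries. By their titles the naive pairs are technical replicates of 1 biological sample per genotype, whereas the polarized pairs are biological replicates. The 2 Th2 knockout libraries carry Th1 in the title and Th2 as source, and they were grouped by source. The sources used here give neither age and sex nor the number of animals behind a library.

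The lists held 34746 to 56357 peaks on the chromosomes used, with Th1 wild-type replicate 2 the shortest. The bounds of the deleted stretch are not in the sources used here. Gm27162, a gene on the far side of Ets1, had 5 to 7 peaks in every wild-type library, 1 and 1 in naive knockout and 0 in the 4 polarized knockout libraries. The 5 T cell markers all had peaks in every library, and the 5 Th2 markers had 30 to 33 distinct regions with a peak in the 4 Th2 libraries against 16 to 23 in the 4 Th1 libraries, with 33 and 30 in the 2 libraries of conflicting label. The 5 Th1 markers, of which Cxcr3 is 1, had 24 to 32 regions in Th1 and 23 to 26 in Th2 libraries, ranges that overlap, and 14 to 23 in naive libraries. Naive lists differed from the others in the strength of their peaks, with a median −log10 q-value of 8.21 and 9.78 in wild type and 4.93 and 5.67 in knockout, against 3.39 to 4.14 in polarized lists. Their peak names carry another run name than those of the polarized lists, so cell state and run cannot be told apart. In naive cells the wild-type lists had 22 and 20 peaks on the Y chromosome and the knockout lists 10 and 9, against 12 to 19 in polarized lists. Sex and genotype cannot be told apart in naive cells where the sex of the animals is not known.

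Strength is given throughout as the percentile of a peak's −log10 q-value within its own list, the strongest peak counting where a region has several. Percentiles order the regions of one library, and between lists of unequal length they show no change. The depth of the libraries is unknown, so a region without a peak is one where none was called. The promoters were examined first, and 7 of the 9 genes have an entry in the RefSeq promoter table (GRCm38.p6). The 5 promoters with a peak in at least 1 library are printed as the 250 bases before the start site, 5′ to 3′ on the gene's strand, in lower case. Capitals mark matches on either strand to AGGAAG (the core bound by ETS factors such as ETS1), its form CGGAAG, the RUNX motif TGTGGT, the GATA motif AGATAA, the AP-1 motif TGANTCA and the GC box GGGCGG. The T-box motif GGTGTGA, present in 3.33% of promoters, and the STAT motif TTCNNNGAA, present in 7.02%, were searched too and had no match in these 5.
Ccr4, chr9:114496545-114496794, minus strand: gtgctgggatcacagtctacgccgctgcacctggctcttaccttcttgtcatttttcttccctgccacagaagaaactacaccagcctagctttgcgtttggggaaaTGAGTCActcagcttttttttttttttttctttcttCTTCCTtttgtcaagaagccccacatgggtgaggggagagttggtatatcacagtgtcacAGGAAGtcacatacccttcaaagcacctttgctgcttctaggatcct
Ccr8, chr9:120091883-120092132, plus strand: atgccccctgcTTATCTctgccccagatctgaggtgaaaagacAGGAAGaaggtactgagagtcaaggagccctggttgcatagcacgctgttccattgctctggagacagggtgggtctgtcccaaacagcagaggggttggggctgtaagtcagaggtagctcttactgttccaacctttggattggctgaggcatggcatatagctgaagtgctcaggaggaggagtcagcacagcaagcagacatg
Cxcr6, chr9:123806227-123806476, plus strand: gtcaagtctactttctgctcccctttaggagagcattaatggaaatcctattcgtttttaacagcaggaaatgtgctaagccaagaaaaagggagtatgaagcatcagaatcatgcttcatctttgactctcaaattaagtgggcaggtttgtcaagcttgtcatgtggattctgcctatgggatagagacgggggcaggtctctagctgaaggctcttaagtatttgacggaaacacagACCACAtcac
Cxcr4, chr1:128592300-128592549, minus strand: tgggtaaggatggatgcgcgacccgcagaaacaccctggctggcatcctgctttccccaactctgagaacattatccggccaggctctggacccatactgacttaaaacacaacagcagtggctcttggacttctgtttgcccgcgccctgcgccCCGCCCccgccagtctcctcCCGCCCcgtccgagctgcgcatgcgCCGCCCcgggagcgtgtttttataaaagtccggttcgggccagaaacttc
Cxcr3, chrX:101734148-101734397, minus strand: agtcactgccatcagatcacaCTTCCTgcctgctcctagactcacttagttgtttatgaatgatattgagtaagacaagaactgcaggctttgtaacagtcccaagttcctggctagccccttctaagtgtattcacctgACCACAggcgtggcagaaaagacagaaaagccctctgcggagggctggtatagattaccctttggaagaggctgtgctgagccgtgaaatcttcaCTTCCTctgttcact
The stretches of Ccr4, Cxcr6 and Cxcr4 were overlapped by a peak in 12 of 12 libraries, that of Ccr8 in 11 and that of Cxcr3 in 4. They share no single motif. Ccr4 and Cxcr3 hold 2 ETS matches each and Ccr8 holds 1, a match that 39.2% of all 32851 promoters of that length have. Ccr4 has in addition an AP-1 match (6.75% of promoters), Cxcr6 and Cxcr3 a RUNX match (14% of promoters), Ccr8 a GATA match (9.99%) and Cxcr4 3 GC boxes (32.7% have at least 1). A match is a run of letters and not evidence of binding.

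The question of first interest was whether Th1 and Th2 cells open different receptor genes. At the 9 genes no region had a peak in all 4 libraries of one lineage and in none of the other. Of 27 regions open in all 4 Th1 libraries 0 were Th1-only, where 1.86% of all such regions in the genome were. Of 29 regions open in all 4 Th2 libraries 0 were Th2-only, against 7.47% over the genome. With so few regions neither share can be told from the background. Within wild-type libraries alone 2 of 29 regions were Th1-only (6.9%, against 5.85%), at Cxcr3 and Ccr7, and 1 of 31 was Th2-only (3.23%, against 19.9%), at Cxcr6. Within knockout libraries alone 4 of 34 were Th1-only (11.8%, against 6.82%), at Cxcr3, Ccr2, Ccr4 and Ccr7, and 3 of 33 Th2-only (9.09%, against 16.2%), at Ccr4 and Cxcr5. In both genotypes the Th1-only share lay above that of the genome and the Th2-only share below it, on counts of 1 to 4 regions. In lists of equal length, over both genotypes, 0 of 19 regions were Th1-only (0%, against 3.5%), so that share lay below the genome's there. The Th2-only share was 4.76%, against 5.32%. The number of regions with a peak per gene was compared by the exact two-sided permutation test over 4 against 4 libraries. Benjamini-Hochberg adjustment was made over 17472 genes. Adjusted p was 0.515 for Cxcr3 and for Cxcr6, which had the lowest values among the 9, and 0.683 to 1 for Ccr2, Ccr4, Ccr8, Ccr6, Ccr7 and Cxcr5, with 0.558 for Cxcr4. Of all genes 0 passed (0% of those tested), while 1710 (9.79%) had an unadjusted p of 0.0286, the smallest that this design allows. At that floor the adjusted p was 0.292, so no single gene could pass. The test therefore does not show that the lineages are alike. Over all genes the median difference was -0.5 regions, Th1 minus Th2. In lists of equal length Cxcr3 had 1, 2, 1 and 1 regions in Th1 and 0 in every Th2 library. Cxcr6 had 2, 1, 1 and 0 in Th1 and 3 in every Th2 library. Both had an unadjusted p of 0.0286 by the same test, the others of the 9 a higher one, and the smallest adjusted p of any gene was 0.632. With a q-value of at most 0.001 the unadjusted p was 0.429 for Cxcr3 and 0.0286 for Cxcr6.

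Regions with a peak at each gene are plotted by group.

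**Figure D1:**
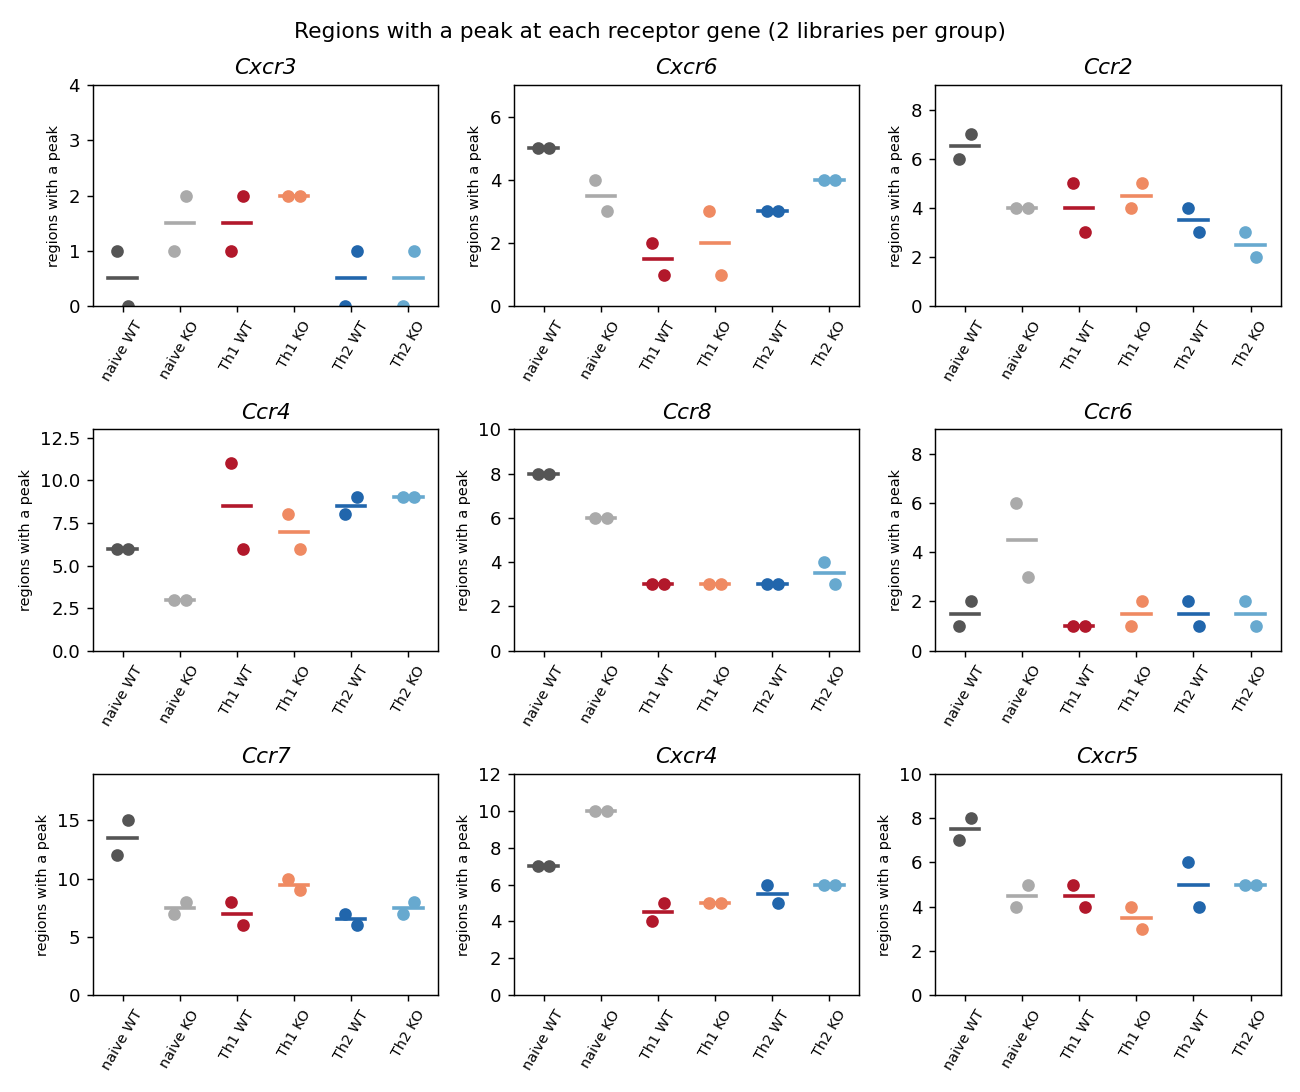
Number of regions with a peak (y axis) at each of the 9 genes in each library (points, 2 per group), by cell type and genotype (x axis; WT wild type, KO knockout); horizontal bars are the mean of the 2 libraries. Ccr8 falls from 8 and 8 regions in naive wild-type to 3 or 4 in polarized libraries, and Cxcr3 has at most 2 regions in any library.

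Of the receptors linked to Th1 cells, Cxcr3 had the fewest regions of the 9 genes, Cxcr6 had 7 and Ccr2 had 9. Cxcr3, the receptor of CXCL9, CXCL10 and CXCL11 and the usual surface marker of Th1 cells, had 3 regions, on chromosome X. The region at its start site (101733862 to 101734345) had a weak peak in 4 libraries, at percentiles 19.3 in naive wild type, 23.1 and 0.5 in naive knockout and 30.2 in Th2 wild type, and none in the 4 Th1 libraries. In Th1 cells the peaks lay beside the gene. The region 101737190 to 101737887, centred 3.39 kb upstream of the start site, had a peak in all 4 Th1 libraries at percentiles 26.5 and 36.5 in wild type and 10.3 and 57.2 in knockout. It also had one in 1 naive knockout library (17.6) and in 1 Th2 knockout library (18.8). The downstream region 101729987 to 101730363 had a peak in 3 Th1 libraries (13.4 in wild-type replicate 2, and 36.5 and 11.9 in knockout) and in no other library. Counted by gene, Cxcr3 had 1.75 ± 0.50 regions in Th1 and 0.50 ± 0.58 in Th2 libraries (SD, n = 4, exact permutation p 0.0857, adjusted p 0.515). All of these peaks stood below percentile 60 of their lists, and none of the 3 regions was open in all 12 libraries.

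Cxcr6, the receptor of the transmembrane chemokine CXCL16, lies within the body of Fyco1, so none of its 7 regions can be assigned to Cxcr6 alone. Its start site (123806216 to 123806799 on chromosome 9) had a peak in every library. The percentiles there were 92.2 and 90.1 in naive wild type, 82 and 83.6 in naive knockout, 25.4 and 76 in Th1 wild type, 63.3 and 16.5 in Th1 knockout, 68.2 and 58.3 in Th2 wild type and 63.7 and 69.4 in Th2 knockout. The naive libraries were the highest 4, and the Th1 libraries spanned the widest range. Downstream of the gene 1 region had peaks mainly in Th2 libraries. The region 123815802 to 123816323, centred 9.59 kb downstream of the start site, had no peak in naive cells, a peak in 1 Th1 knockout library (16.1) and a peak in all 4 Th2 libraries (46.5 and 47.6 in wild type, 78.8 and 50.3 in knockout). Its neighbour 123814213 to 123815087 had a peak in all naive and all Th2 libraries, in Th1 wild-type replicate 1 (48.7) and in Th1 knockout replicate 1 (21.4), and in neither replicate 2 of Th1. The mean count was 1.75 ± 0.96 regions in Th1 and 3.50 ± 0.58 in Th2 libraries (SD, n = 4, exact permutation p 0.0857, adjusted p 0.515), a direction opposite to that of Cxcr3.

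Ccr2, the receptor of CCL2 on monocytes and effector T cells, showed a switch between neighbouring regions upstream of the gene. The region 124100289 to 124101226 on chromosome 9, centred 1.43 kb upstream of the start site, had a peak in the 4 naive libraries, at percentiles 76.3 and 71.7 in wild type and 45.3 and 59.9 in knockout, and in none of the 8 polarized libraries. The region 124098947 to 124099670, 2.87 kb upstream, was the reverse. It had no peak in naive cells and one in all 8 polarized libraries, at 85.6 and 72.1 in Th1 wild type, 83.8 and 54.8 in Th1 knockout, 85.8 and 94.9 in Th2 wild type and 91.7 and 93.3 in Th2 knockout. The 250 bases before the Ccr2 start site had no peak in any library. Beyond the 3' end, 124114708 to 124115498 had peaks in both naive wild-type libraries (5.2 and 3.5), all 4 Th1 libraries (60.5 and 63.2 in wild type, 22.6 and 18.5 in knockout) and both Th2 wild-type libraries (27.7 and 1.1). It had none in naive or Th2 knockout libraries.

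**Figure D2:**
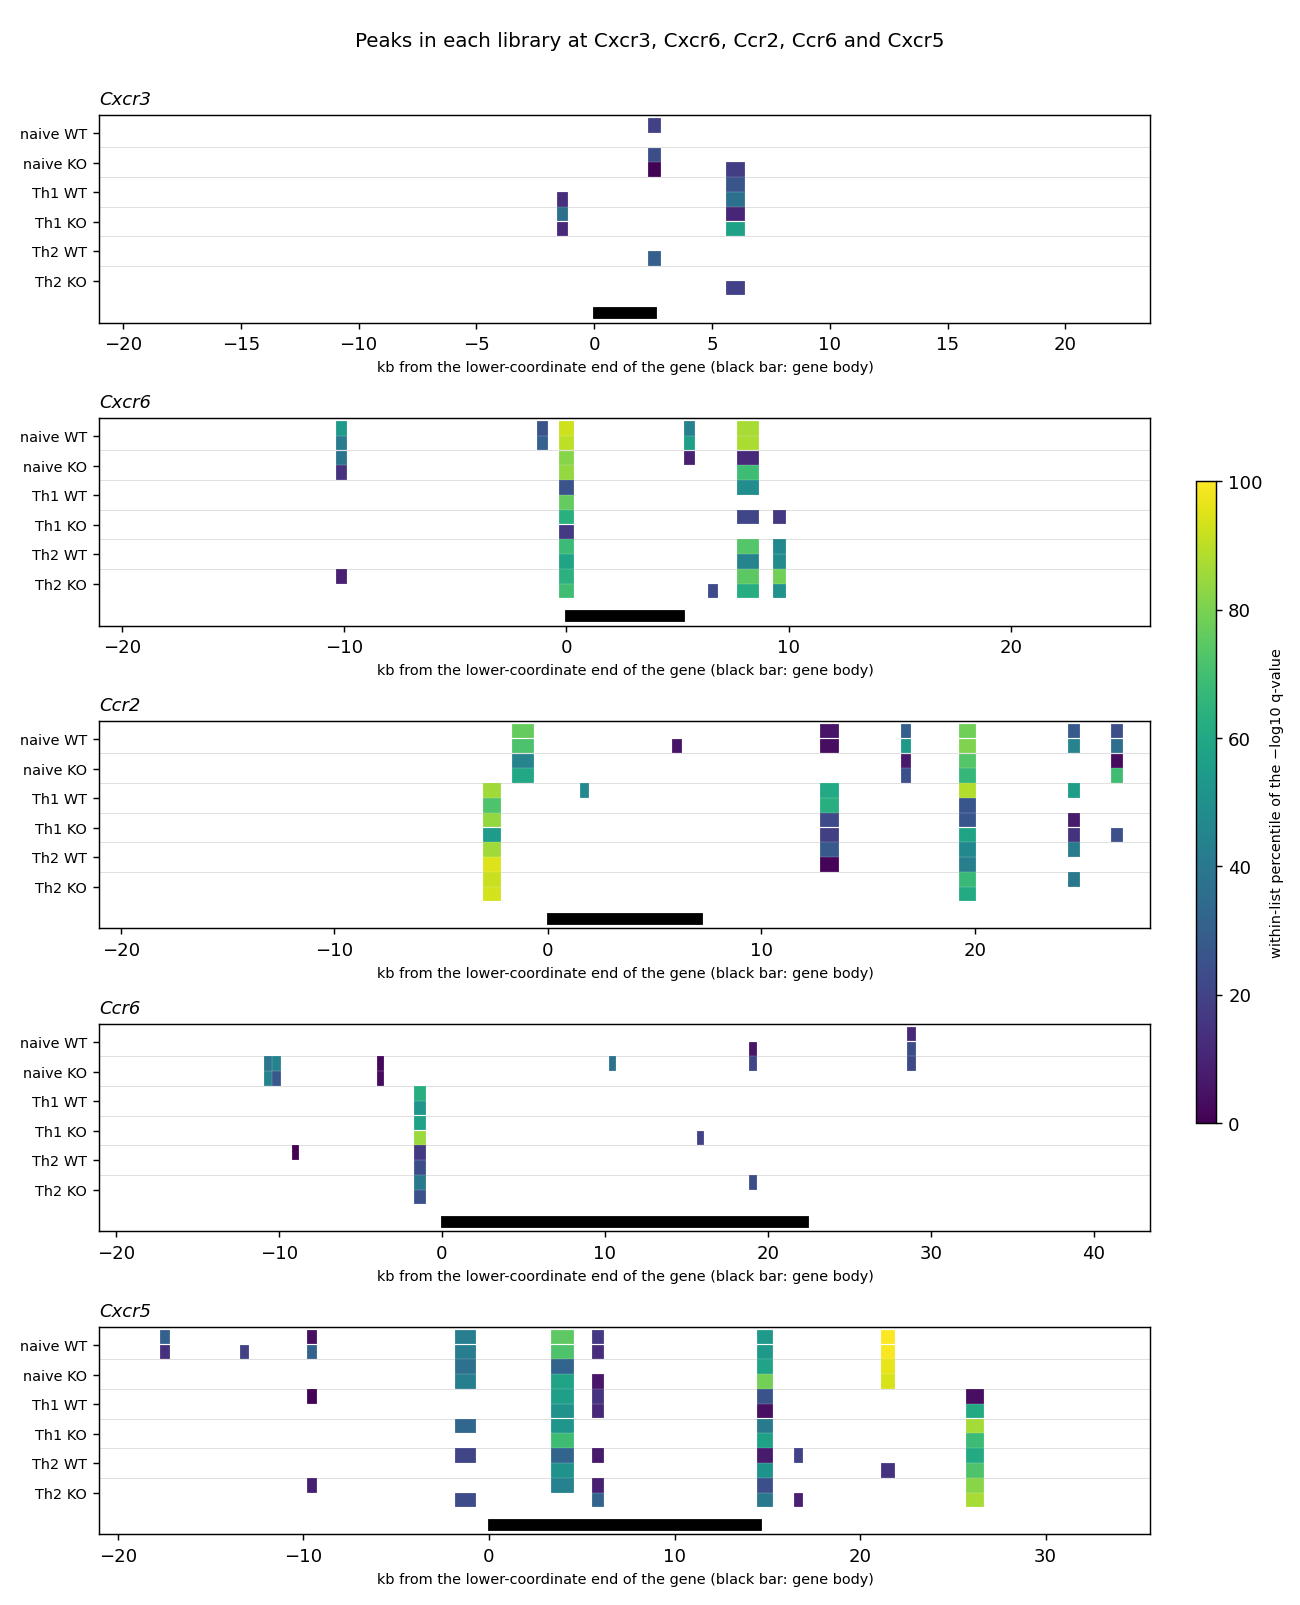
Peaks at Cxcr3, Cxcr6, Ccr2, Ccr6 and Cxcr5 in the 12 libraries (rows, 2 per group, replicate 1 above replicate 2); x axis, kb from the lower-coordinate end of the gene body (black bar). Each block is a merged region, at least 0.35 kb wide as drawn, coloured by the within-list percentile of its strongest peak. At Ccr2 the blocks just left of the gene change place between the 4 naive and the 8 polarized rows, and at Ccr6 the block at −1.31 kb appears in the 8 polarized rows.

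The receptors linked to Th2 cells were open in both lineages. Ccr4, the receptor of CCL17 and CCL22, had 13 regions, and its start site (114496204 to 114496991 on chromosome 9) had a peak in all 12 libraries. Percentiles there were 91 and 95.5 in naive wild type, 83.6 and 85.1 in naive knockout, 72.3 and 61.5 in Th1 wild type, 74.1 and 48.5 in Th1 knockout, 78.9 and 71.9 in Th2 wild type and 67.9 and 88.5 in Th2 knockout. The promoter with its ETS and AP-1 matches was thus already called in naive cells. What the polarized libraries added lay downstream of the gene. The region 114487425 to 114488190, centred 8.74 kb downstream of the start site, had no naive peak and peaks at 87.4 and 84.3 in Th1 wild type, 92.2 and 96.1 in Th1 knockout, 86.8 and 89.2 in Th2 wild type and 87.8 and 84.6 in Th2 knockout. Th1 and Th2 libraries overlapped there. The region 114480069 to 114480561, 16.23 kb downstream, was open in the same 8 libraries, at 22 to 68.1 in Th1 and 64.4 to 77.8 in Th2. In 2 further regions without a naive peak 1 Th1 library was missing. The region 114471846 to 114472413, in the body of Glb1, had no peak in Th1 wild-type replicate 2 and percentiles of 83.4 to 89.4 in the other 7 polarized libraries. The region 114476361 to 114476862 had none in Th1 knockout replicate 2, with 23.2 to 40.4 in the other Th1 and 59.1 to 81.8 in the Th2 libraries. The count per gene was 7.75 ± 2.36 in Th1 and 8.75 ± 0.50 in Th2 libraries (SD, n = 4, exact permutation p 0.514, adjusted p 0.998).

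Ccr8, the receptor of CCL1, lost peaks around the gene in polarized cells while its start site kept them. Naive wild-type libraries had 8 and 8 of its 10 regions, naive knockout 6 and 6, and polarized libraries 3 or 4. The region that holds the start site (120090443 to 120092341 on chromosome 9, 1899 bp, the widest of the 92) had a peak in every library. Its percentiles were 21.1 and 27.1 in naive wild type, 35.2 and 17 in naive knockout, 74.7 and 43.5 in Th1 wild type, 76.6 and 47.4 in Th1 knockout, 85.1 and 84.8 in Th2 wild type and 94.4 and 87.4 in Th2 knockout. By the strongest peak of each library the groups followed one another without overlap, naive below Th1 and Th1 below Th2. That peak did not always reach the 250 bases before the start site. Of the peaks that did, those of Th1 stood at 74.7 and 30.7 in wild type and 52.2 and 34.4 in knockout. Those of Th2 stood at 85.1 and 84.8 in wild type and 42.7 and 68.6 in knockout, so Th1 and Th2 overlapped there. Within the region the naive peaks began at 120091184 or later. All 4 Th2 libraries and replicate 2 of both Th1 groups had a peak that began between 120090443 and 120090534. A further region 17.41 kb upstream (120074425 to 120075027) was open in all 12 libraries, at 78.6, 40, 85.7 and 57.6 in the Th1 libraries and 96.6, 94.3, 98.6 and 97.6 in the Th2 libraries. The naive libraries stood at 86.7 to 96.9 there. The region 120079876 to 120080363 was naive-only, at 19.3 and 45.9 in wild type and 14.6 and 44.3 in knockout. Its neighbour 120082469 to 120083139 had naive percentiles of 53.3 to 84.2 and a single polarized peak, at 9.8 in Th2 knockout replicate 1.

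**Figure D3:**
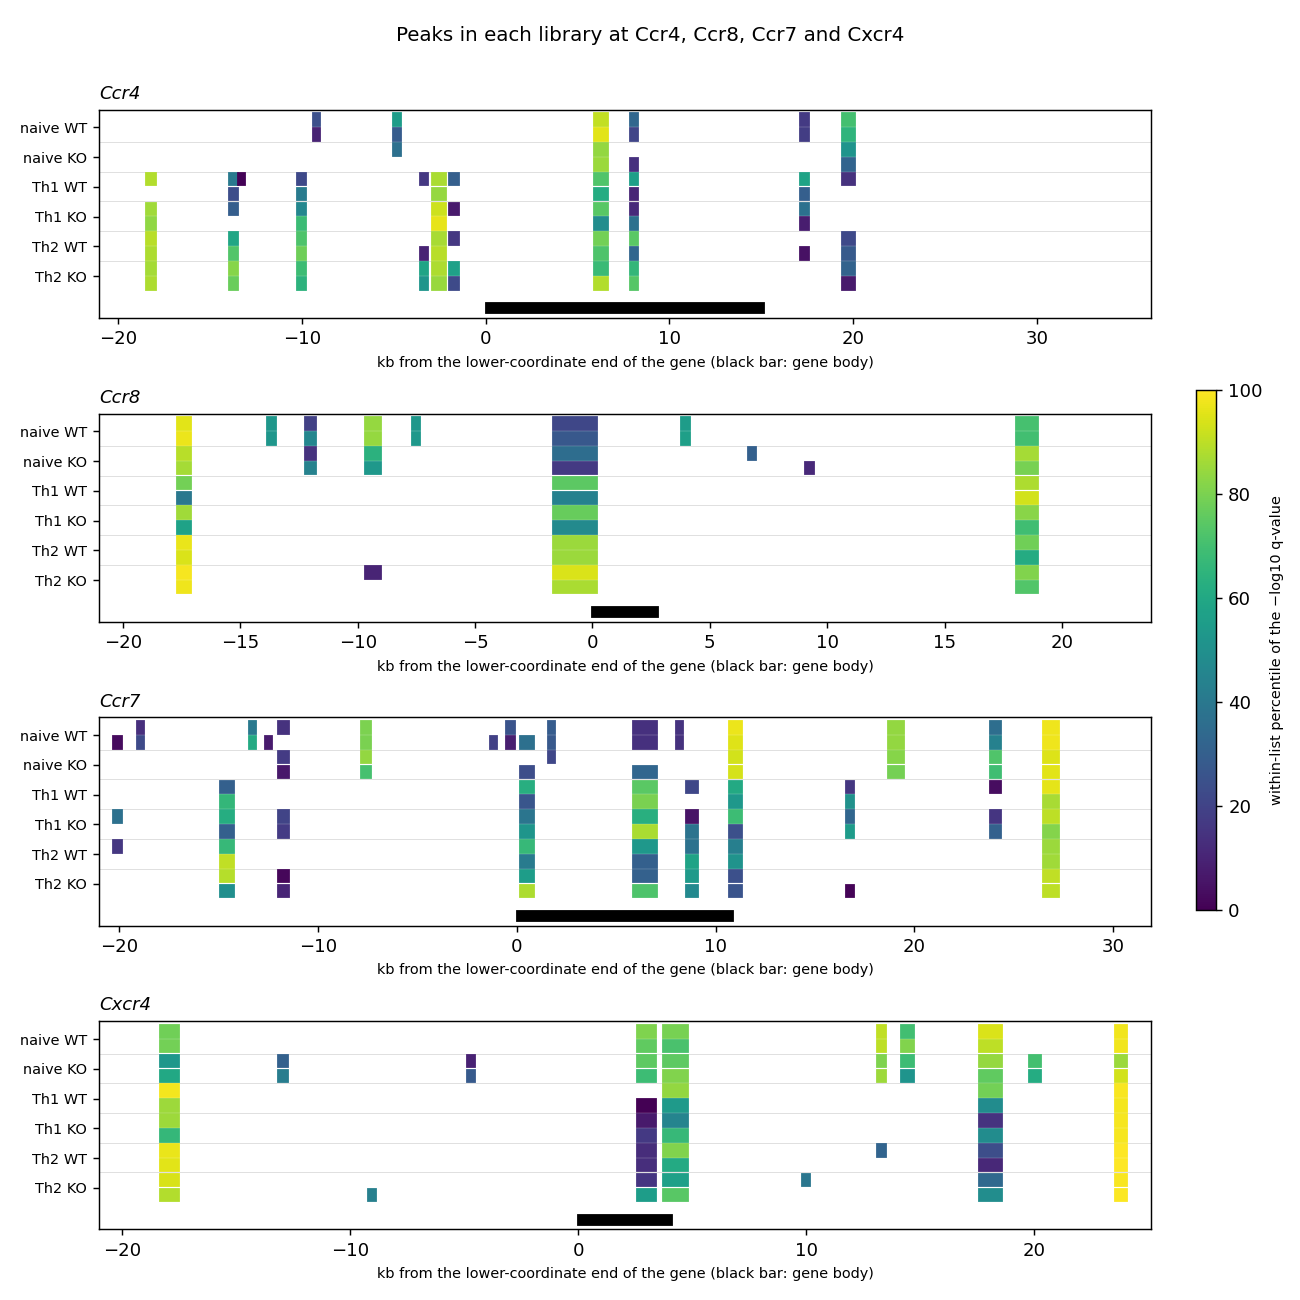
Peaks at Ccr4, Ccr8, Ccr7 and Cxcr4 in the 12 libraries (rows, 2 per group, replicate 1 above replicate 2); x axis, kb from the lower-coordinate end of the gene body (black bar). Blocks are merged regions, at least 0.35 kb wide as drawn, coloured by within-list percentile. At Ccr4 the blocks left of the gene fill the polarized rows, and at Ccr7 the blocks at −7.58 and 19.08 kb fill the 4 naive rows.

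Because lists of unequal length cannot be compared by rank, the order of Th1 and Th2 libraries was read again in lists cut to their 34746 strongest peaks, a choice made after the data were seen. Of 21 receptor regions with a peak in all 4 Th2 libraries 4 ranked higher in every Th2 than in every Th1 library, at Cxcr6 (123815802), Ccr4 (114476361) and Ccr8 (120074425 and 120090443), which is 19% against 17.2% of such regions in the genome. In the other direction 2 of 19 did, at Ccr6 and Cxcr5, or 10.5% against 15.7%. Both shares lie near the background, so this order is a description of those regions and sets the receptor genes apart from no others. In the same lists 1 of 21 regions was Th2-only (4.76%, against 5.32%), that of Cxcr6. At Ccr8 the 2 regions spanned percentiles 40 to 81.1 and 32.8 to 69 in Th1 libraries and 91.6 to 97.7 and 76.8 to 90.9 in Th2 libraries.

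**Figure D4:**
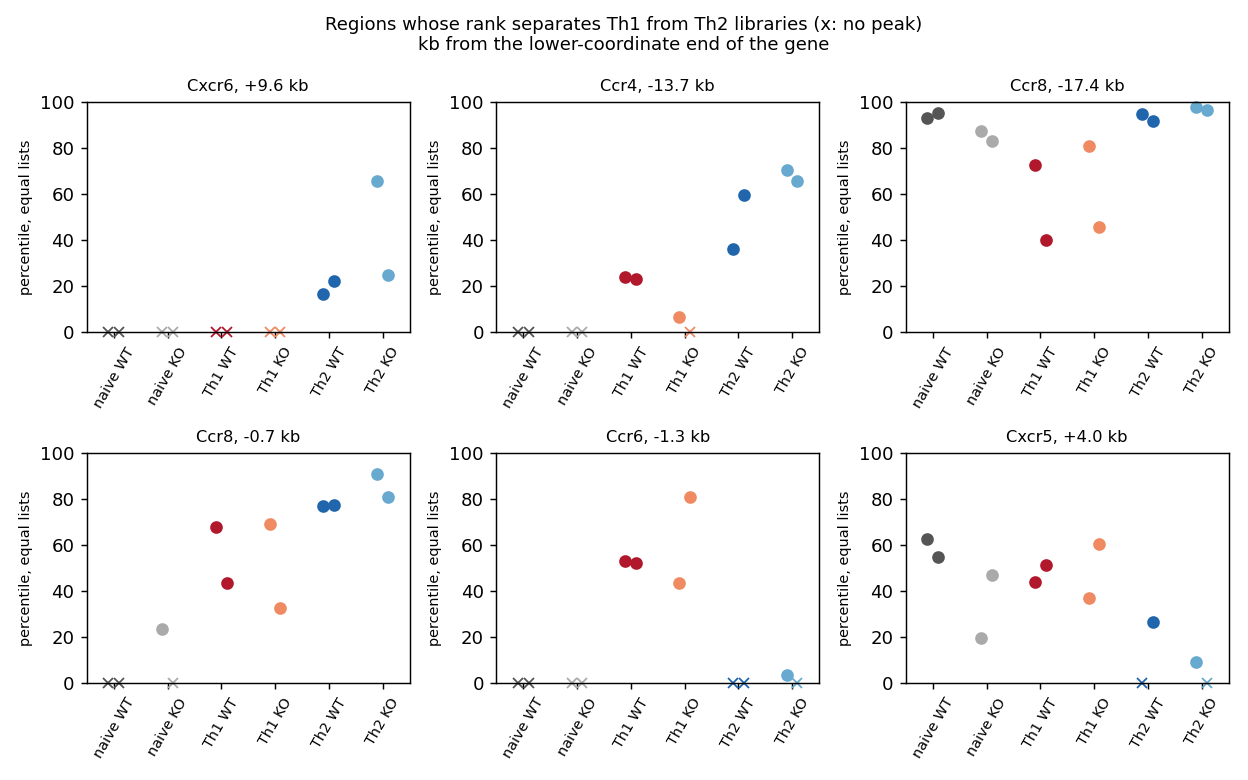
Percentile of the −log10 q-value in lists of equal length (y axis) in each library (points; crosses, no peak) at the 6 regions whose order separates the 4 Th1 from the 4 Th2 libraries, by group (x axis); titles give kb from the lower-coordinate end of the gene. The 4 Th2 points lie above the 4 Th1 points at Cxcr6, Ccr4 and Ccr8 and below them at Ccr6 and Cxcr5.

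Ccr6, the CCL20 receptor of Th17 cells, regulatory T cells and B cells, had 1 region in polarized cells that recurred. The region 8234423 to 8235031 on chromosome 17, centred 1.32 kb upstream of the first RefSeq start site, had no naive peak. Its percentiles were 63 and 52.3 in Th1 wild type, 57.5 and 84.9 in Th1 knockout, 16.8 and 23.3 in Th2 wild type and 40.6 and 24.4 in Th2 knockout, and the Th1 values lie above the Th2 values without overlap. In lists of equal length it had a peak in all 4 Th1 libraries and in 1 Th2 library. The 250 bases before each of the 2 RefSeq start sites had no peak in any library, and the remaining polarized peaks of Ccr6 were single ones in single libraries.

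At each of the homing receptor genes of naive and follicular T cells some regions had a peak in all 12 libraries while others had peaks mainly in naive or mainly in polarized ones. Ccr7, the receptor of CCL19 and CCL21 that takes T cells into lymph nodes, had 19 regions on chromosome 11, the most of the 9 genes. Its strand is not in the table used. The region over its higher-coordinate end (99154882 to 99155537) had a peak in all 12 libraries, at 97 and 95.3 in naive wild type, 93.1 and 93.4 in naive knockout, 60.2 and 53.4 in Th1 wild type, 68.6 and 24.6 in Th1 knockout, 42.9 and 51.5 in Th2 wild type and 24.6 and 25.9 in Th2 knockout. Every naive value lay above every polarized value. The regions 99136374 to 99136858 and 99162899 to 99163668 were naive-only, with percentiles of 70.7 to 83.7 and 79 to 83.9 in the 4 naive libraries. Against these, 99129290 to 99129971 was polarized-only, at 30.1 to 66.4 in Th1 and 49.6 to 90.4 in Th2. Inside the gene, 99150051 to 99151233 stood at 13.9 and 14 in naive wild type, with 1 naive knockout peak at 32.7, and at 62.9 to 87.4 in Th1 and 30.1 to 71.9 in Th2 libraries. A second inner region, 99152724 to 99153332, had no naive peak, peaks in 3 Th1 libraries (21.2 in wild-type replicate 1, and 5.4 and 38.1 in knockout) and peaks at 37.7 to 58.1 in the 4 Th2 libraries. At these 2 inner regions polarized cells thus carried peaks where naive cells had weak ones or none. Other inner regions went the other way, without a polarized peak. The region 99145810 to 99146090 had peaks in 3 naive libraries (28.6 and 27.5 in wild type and 21.2 in knockout). The region 99152284 to 99152518 had peaks in naive wild type alone (14.5 and 14.1). A flanking region, 99170666 to 99171476, stayed above percentile 80 in all 12 libraries. The region 99160772 to 99161181 had peaks in the 4 Th1 libraries (15.7 and 50.1 in wild type, 32.8 and 54.3 in knockout) and in 1 Th2 library at percentile 0.8, and in lists of equal length in 3 Th1 libraries.

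Cxcr4, the CXCL12 receptor that holds cells in marrow, had 12 regions on chromosome 1. Its start site (128591927 to 128593034) had a peak in all 12 libraries, at 71.1 to 81.1 in naive, 45.2 to 83.8 in Th1 and 56.4 to 81.2 in Th2 libraries, ranges that overlap. The region 19.72 kb upstream (128611749 to 128612280) was the strongest of the gene in every library. It stood at 97.8 and 97.9 in naive wild type, 85 and 93.1 in naive knockout and 98.2 to 99.9 in polarized libraries. Nearer the gene, 128602372 to 128602933 was naive-only, at 69.7 and 81.2 in wild type and 68.6 and 51.6 in knockout. Its neighbour 128601323 to 128601720 stood at 80.5 to 90.6 in naive libraries, with 1 further peak, in Th2 wild-type replicate 1 (31.8). Within the gene, 128590772 to 128591616 stood at 68.4 to 80.5 in naive libraries, at 0 to 16.6 in 3 Th1 libraries with none in Th1 wild-type replicate 1, and at 12.8 to 55.1 in Th2 libraries.

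Cxcr5, the CXCL13 receptor of follicular helper T cells and B cells, had 10 regions on chromosome 9, 4 of which overlap the body of Bcl9l. Its strand is not in the table used. The region 44532970 to 44533621, 21.51 kb from the lower-coordinate end, was the strongest of the gene in naive cells, at 99.3 and 99.1 in wild type and 96.1 and 94.1 in knockout. It had 1 polarized peak, at 14.6 in Th2 wild-type replicate 2. The region 44537531 to 44538394 was polarized-only, at 3.9 and 60.7 in Th1 wild type, 86.4 and 68 in Th1 knockout, 60.6 and 71.9 in Th2 wild type and 82.4 and 86.9 in Th2 knockout. The region over the higher-coordinate end, 44526294 to 44527056, had a peak in all 12 libraries, at 53.8 to 78.8 in naive and 4.1 to 57.4 in polarized libraries.

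Across the 9 genes, 6 of 30 regions open in all 4 naive libraries had no polarized peak (20%, against 18.6% of such regions in the genome): 2 at Ccr2, 2 at Ccr7, 1 at Ccr8 and 1 at Cxcr4. Another 6 of 22 regions open in all 8 polarized libraries had no naive peak (27.3%, against 27.6%): 2 at Ccr4 and 1 each at Ccr2, Ccr6, Ccr7 and Cxcr5. Both shares lie near those of the genome. In lists of equal length 8 of 24 regions were naive-only (33.3%, against 20.6%) and 4 of 14 polarized-only (28.6%, against 30.9%). Within wild-type libraries alone 23 of 51 regions were naive-only (45.1%, against 37.4%) and 7 of 25 polarized-only (28%, against 30.5%). Within knockout libraries alone 15 of 38 were naive-only (39.5%, against 28.4%) and 8 of 26 polarized-only (30.8%, against 37.6%). Of the 92 regions 13 had a peak in all 12 libraries (14.1% against 13.2%), at all of the genes but Cxcr3 and Ccr6, and 14 had a peak in 1 library alone (15.2% against 21.5%).

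**Figure D5:**
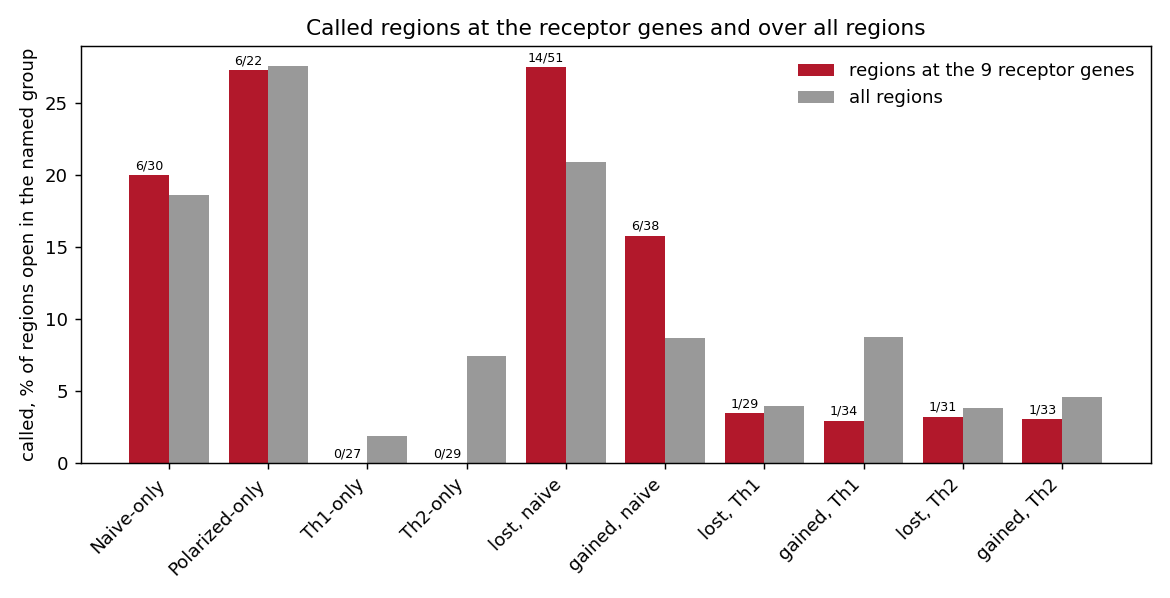
Share of regions called in each comparison (y axis, percent of the regions with a peak in every library of the named group), at the 9 receptor genes (red, with counts above) and over all regions (grey). Bars of both kinds are close for naive-only and polarized-only regions, and the receptor genes have 0 Th1-only and 0 Th2-only regions.

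The knockout was compared with wild type within each cell type, a region being called lost when its peak was present in the 2 wild-type and absent from the 2 knockout libraries, and gained when the opposite held. In naive cells 14 of 51 regions were lost (27.5%, against 20.9% in the genome) and 6 of 38 gained (15.8%, against 8.67%). The lost ones were 4 at Ccr7, 3 at Ccr8, 2 each at Ccr2, Ccr4 and Cxcr5 and 1 at Cxcr6. At Ccr8 they were 120078312 to 120078614, 120084450 to 120084788 and 120095900 to 120096291, with wild-type percentiles of 52.5 to 56.1. These 3 were lost in lists of equal length too, at wild-type percentiles of 23.2 to 31.9, whereas Ccr7 went from 4 lost to 1 and Ccr2, Ccr4 and Cxcr5 from 2 each to 0. The 1 lost at Cxcr6 in those lists was a different region, 123811827 to 123812206. In the full lists that region had a peak in naive knockout replicate 1 (9.3). In lists of equal length 5 of 31 were lost (16.1%, against 12.5%) and 4 of 28 gained (14.3%, against 13%).

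The gained regions of naive knockout cells were 3 at Ccr6 and 3 at Cxcr4, and 2 and 2 in lists of equal length. At Ccr6 they were 8225250 to 8225555 (percentiles 38.8 and 44.1 in the knockout), 8225723 to 8226107 (44 and 27.2) and 8232105 to 8232451 (1.6 and 3.1). None of the 3 had a peak in a Th1 or Th2 library of either genotype. At Cxcr4 the region 128607965 to 128608481, 15.92 kb upstream, stood at 70.1 and 61.6, and 128575046 to 128575468 and 128583308 to 128583641 at 30.5 and 42.1 and at 9.3 and 28.1. Ccr6 and Cxcr4 are also expressed by B cells. The 4 B cell markers Ms4a1, Cd79a, Cd79b and Pax5 had 17 and 21 regions with a peak in naive knockout libraries, 12 and 10 in naive wild type and 6 to 9 in polarized libraries. A peak was found at 4 of the 4 genes in both naive knockout libraries and at 3 of 4 in both naive wild-type libraries. The 5 red cell markers moved the same way, with 17 and 20 regions in naive knockout and 10 and 10 in naive wild type. The 5 T cell markers had 24 and 22 against 31 and 34. Over the genome, too, naive knockout had fewer regions with a peak, 39834 and 42566 against 50805 and 54155 in naive wild type. The part of these marker differences in the gained regions was not tested. Cxcr5, another receptor of B cells, gained none and had 4 and 5 regions with a peak in naive knockout against 7 and 8 in naive wild type. The naive replicates are technical, so the spread between animals is unknown, and 2 against 2 libraries cannot give an exact permutation p below 0.333.

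In polarized cells the knockout changed few calls at the receptor genes. In Th1 cells 1 of 29 regions was lost (3.45%, against 3.96%), 44517374 to 44517953 within Cxcr5 with wild-type percentiles of 15.2 and 11.1. There 1 of 34 was gained (2.94%, against 8.76%), 99132173 to 99132744 beside Ccr7 at 20.3 and 17.4. In Th2 cells 1 of 31 was lost (3.23%, against 3.83%), 124114708 to 124115498 beyond Ccr2 at 27.7 and 1.1. The 1 of 33 gained (3.03%, against 4.56%) was again 99132173 to 99132744, at 1.8 and 10.2. That Ccr7 region also had peaks in both naive knockout libraries (17.2 and 6.6) and in 1 naive wild-type library (14.3), so all 6 knockout and 1 of 6 wild-type libraries had one, all of them weak. In lists of equal length none of these losses and gains was called, and the calls made there were others. In Th1 cells 1 of 26 regions was then lost (3.85%, against 6.59%), at Ccr2, and 0 of 22 gained (against 6.35%). In Th2 cells 1 of 22 was lost (4.55%, against 4.57%), at Ccr7, and 1 of 23 gained (4.35%, against 4.57%), at Ccr4. Counts of 1 in these comparisons rose to as many as 6 when 1 library was left out. The rule then asks for fewer libraries, and no share over all regions is given for these counts. The Th1 losses went to 6 without Th1 wild-type replicate 2 and to 2 without Th1 knockout replicate 1, and the Th1 gains to 5, 3, 3 and 4 without wild-type replicate 1 or 2 or knockout replicate 1 or 2. The Th2 losses went to 4 without either wild-type replicate and to 2 without knockout replicate 1, and the Th2 gains to 3, 2, 5 and 6 without wild-type replicate 1 or 2 or knockout replicate 1 or 2.

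Other genes of the pathway were counted by the same rules. Of 14 other chemokine receptor genes, 6 of 22 regions were naive-only (27.3%, against 18.6% of all regions) and 8 of 15 polarized-only (53.3%, against 27.6%). Cx3cr1, the fractalkine receptor, had 2 naive-only regions, and Ccr3, the eotaxin receptor, had 2 polarized-only regions. The list had 0 Th1-only regions of 19 (0%, against 1.86%) and 1 Th2-only region of 24 (4.17%, against 7.47%), at Ccr9. Several of its genes lie in the same chromosome 9 cluster as Cxcr6 and Ccr2. In naive knockout cells 11 of 39 regions of these genes were lost (28.2%, against 20.9%), 3 at Cxcr1 and 3 at Cx3cr1, and 8 of 32 gained (25%, against 8.67%), 2 each at Ccr1l1 and Ccr3. Of 16 ligand genes 15 were in the table, and 5 of 9 regions were polarized-only (55.6%, against 27.6%), with 2 at Ccl17, a ligand of CCR4, and 1 each at Ccl1, Cxcl13, Cxcl9 and Cxcl10, where neighbouring genes share a region. Ccl1, the ligand of CCR8, also held the list's single Th2-only region, 1 of 11 (9.09%, against 7.47%).

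The 19 signalling and homing genes gave 18 naive-only of 98 regions (18.4%, against 18.6%) and 27 polarized-only of 76 (35.5%, against 27.6%). Elmo1, which links the receptors to actin through DOCK2, had 8 polarized-only regions and Dock2 itself 4. Rgs1, a brake on G protein signalling, the integrin gene Itga4 and Pik3cg had 3 each. Itga4 and Elmo1 also had 3 naive-only regions each. This list had 2 Th1-only regions of 83 (2.41%, against 1.86%), at Gnai2 and Rac2, and 6 Th2-only of 110 (5.45%, against 7.47%), 2 of them at Rgs1 and 2 at Elmo1. In naive knockout cells it had 28 of 144 regions lost (19.4%, against 20.9%), 8 at Dock2 and 6 at Elmo1, and 6 of 106 gained (5.66%, against 8.67%).

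The genes whose summed percentiles over the 12 libraries ran most like those of a receptor gene were found among protein-coding genes on other chromosomes. For Cxcr4 they were Fn3k and Fn3krp (Pearson r 0.993 and 0.990), for Ccr8 Map4k4 and Cmip (0.989 and 0.983), and for Cxcr6 Plekha1 and Wdr44 (0.979 and 0.971). Ccr4 was most like Enam and Ints6 (0.976 and 0.973), Cxcr5 like Wdr90 and Slfn3 (0.975 and 0.972) and Ccr7 like Nacc2 and Nfkbie (0.972 and 0.969). Likeness was lower for Ccr6 (Smim7 and Tlcd4, 0.916 and 0.883), Ccr2 (Akr7a5 and Efcab8, 0.906 and 0.874) and Cxcr3 (Ogfrl1 and Suv39h2, 0.885 and 0.835). These coefficients are the highest among 13950 to 14816 genes each, and the 12 points share the split into naive and polarized libraries and the length of each list, so they only describe the pattern.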

How the data were processed

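The 12 deposited files are MACS2 peak lists, 1 per library, made from BWA alignments to GRCm38 and handled with Picard, per the submitters' processing notes. Their versions and settings: not given in the sources used here. Per the deposited lists, each peak has a score (10 times its −log10 q-value, without decimals), a fold enrichment (ratio) over local background, and the −log10 of its p-value and q-value. Depth per sample is unknown, so no counting interval could be given. Peaks on chromosomes 1 to 19 and X were merged where they overlapped by at least 1 bp, and gene bodies came from RefSeq (GRCm38.p6). Exons and strands of genes outside the promoter table were not used.

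Named were those of the 9 genes with a call, without names for naive-only and polarized-only counts of 1 genotype or of equal lists, and of the other lists up to 4 genes with most called regions, or all that tied. Some genes of these lists, and regions overlapping them, are not reported here. Members, lists and tests were chosen with earlier results of these data known. Shares are set beside the same share over all regions. The single test was the exact permutation of regions per gene over Th1 and Th2 libraries. Same-numbered Th1 and Th2 libraries did not deviate together. Alternatives were equal lists of 34746 peaks, a q-value of at most 0.001, cover of 50% of a region, a flank of 10 kb, each library left out, and 1 genotype alone (added after seeing the data). Calls and test were tested on simulated data. The software was Python 3.11.15 with matplotlib 3.10.9, scipy 1.17.1, pandas 2.3.3 and numpy 2.4.6.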

Additional observations from a re-analysis of the deposited data

Results flagged for a closer look

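At 2 genes the number of regions with a peak differed between genotypes in opposite directions in 2 cell types, without overlap of the 2 libraries per genotype, and the difference between cell types was not tested. At Cxcr6 knockout minus wild type was -1.5 regions in naive cells (4 and 3 against 5 and 5) and 1 region in Th2 cells (4 and 4 against 3 and 3). At Ccr7 it was -6 regions in naive cells (7 and 8 against 12 and 15) and 2.5 regions in Th1 cells (10 and 9 against 8 and 6). In lists of equal length naive Ccr7 had 7 and 7 regions in the knockout and 6 and 6 in wild type, and Th2 Cxcr6 had 3 in every library, so neither opposition held there.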

How the results depend on the processing

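Of 125 recomputed counts 82 stayed within 1.5 times the reported one. With equal lists of 34746 peaks Th2-only regions went from 0 to 1 (at Cxcr6), lost regions of naive knockout cells from 14 to 5 and gained regions of Th1 knockout cells from 1 to 0. With the stricter q-value Th2-only regions were 1, naive-only 10 in place of 6, polarized-only 2 in place of 6, and Th1 gained 0. With cover of 50% of a region Th1-only and Th2-only were 1 each, polarized-only 1, Th1 lost 0, Th1 gained 2 and Th2 gained 0. With the 10 kb flank naive lost were 9, naive gained 3, Th1 gained 0 and Th2 gained 0. With wild-type libraries alone Th1-only were 2, Th2-only 1 and naive-only 23, and with knockout libraries alone 4, 3 and 15. The reasons for these shifts were not tested, apart from fewer libraries or peaks being used. Counts with the stricter q-value, 50% cover and the 10 kb flank have no share over all regions beside them.

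Leaving out 1 library gave 0 to 2 Th1-only, 0 to 1 Th2-only, 6 to 10 naive-only (10 without naive knockout replicate 2) and 6 to 8 polarized-only regions. The 2 Th1-only regions appeared without Th2 knockout replicate 2, and 1 each without Th2 wild-type replicate 2 or either Th1 wild-type replicate. A Th2-only region appeared without Th1 wild-type replicate 1 and without Th1 knockout replicate 1. Lost regions were 14 to 19 in naive, 1 to 6 in Th1 and 1 to 4 in Th2 cells, and gained ones 6 to 8, 3 to 5 and 2 to 6. With 1 library left out the rule asks for fewer libraries, and these counts have no share over all regions beside them.

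The number of genes past the adjusted threshold between Th1 and Th2 was 0 under every alternative run, the replicate block included (0 genes, smallest adjusted p 0.752, where a sign-flip exact test of 4 pairs cannot go below 0.125). With so few libraries the floor of p kept the adjusted threshold out of reach. These counts of 0 thus show neither likeness nor difference of the lineages. The numbers did not pair the libraries: deviations of same-numbered Th1 and Th2 libraries correlated at -0.018 in wild type and 0.02 in knockout. The Th1 minus Th2 difference reversed in 6 of 117 recomputations, none past the test. For Ccr6 it went from -0.25 to 0.75 with equal lists, 0.75 with the stricter q-value and 0.25 with 50% cover. For Ccr7 it went from 1.25 to -0.25 with the stricter q-value and -0.5 with 50% cover, and for Cxcr5 from -1 to 1.25 with equal lists. Unknown depth limits every absence of a peak.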
